A study of Mus musculus with 36 samples.

Results

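Mouse embryonic stem cells (mESCs, cells derived from the pre-implantation epiblast that self-renew in culture) were compared after 48 h on soft and on stiff StemBond hydrogels in serum + LIF. The comparison took the 6 RNA sequencing libraries that carried these labels, 3 from soft and 3 from stiff substrates, of 36 libraries in the series, and it covered the 17702 genes that passed a filter on low counts. The cells were wild-type embryonic stem cells of the strain given as 129m. Both hydrogels are polyacrylamide gels to which matrix protein is bound covalently, and both were coated with fibronectin. Cells on soft and on stiff gels thus shared the coating, the medium and the time, and differed in the stiffness of the gel. Cells on tissue culture plastic, kept for the same 48 h in serum + LIF (3 libraries), gave a background on a rigid surface. The same contrast was also available from 6 libraries collected at 24 h in serum + LIF and from 6 collected at 48 h in serum alone, and these were used for comparison.

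Cells sense stiffness through integrins, receptors that bind matrix proteins such as fibronectin and connect them to actin through focal adhesions. On a stiff surface the adhesions grow and actin filaments are built up. This frees MRTF, the actin-binding partner of the transcription factor SRF, and lets the co-activator YAP enter the nucleus, where it works with TEAD factors. SRF targets include contractile and actin-binding proteins, and YAP and TEAD targets include secreted matricellular proteins. In mESCs, LIF acts through STAT3 to sustain the naive state, which is held by transcription factors such as Nanog, Esrrb, Klf4 and Tbx3. Formative genes such as Otx2 and Fgf5 mark cells that are leaving it.

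The 6 libraries held 13929917 to 19412658 counts. Expression is given as CPM, the counts of a gene relative to the size of its library after TMM scaling, and a log2 fold change below 0 means lower expression on soft than on stiff substrates. The SD of the log2 difference between libraries was taken over genes with at least 5 CPM. It was 0.157 to 0.172 for pairs of stiff libraries and 0.189 to 0.217 for pairs of soft libraries. For pairs of a soft with a stiff library it was 0.190 to 0.229. Libraries from different substrates thus differed more than stiff replicates did, but little more than soft replicates did. Markers of embryonic stem cells were high in all 6 libraries. Their 12 genes summed to 5021 to 5318 CPM on soft and 4861 to 4947 CPM on stiff substrates, and none of them passed the test. The sample descriptions name a sequencing pool for each library. All 3 soft libraries came from one pool, and neither of the pools of the stiff libraries, with 2 and 1 of them, held a soft one, so that at 48 h a difference between pools and a difference between substrates cannot be told apart. The 3 plastic libraries came from the pool that held 1 stiff library and no soft library of 48 h, and values on plastic are given beside the others with no test. At 24 h the soft and stiff libraries shared that pool too.

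Few genes passed the test between soft and stiff substrates at 48 h. Before adjustment, 1929 of 17702 genes had a p under 0.05 in edgeR. At a Benjamini-Hochberg adjusted p under 0.05 in edgeR, 138 of 17702 genes (0.78%) passed the test, of which 79 (0.446%) were higher and 59 (0.333%) were lower on soft substrates. The median log2 fold change of the lower genes was -0.44, with 26 of 59 beyond 0.5 in size, and the range ran from -0.20 to -1.64. The median of the higher genes was 0.29, with 12 of 79 beyond 0.5 and a range of 0.18 to 1.09. The lower genes were also less abundant, with a median of 24.2 CPM against 86.3 CPM for the higher genes. The part of abundance in the size of the fold changes was not tested. The 3 soft values did not overlap the 3 stiff values in 58 of the 59 lower genes and in 76 of the 79 higher genes. Of all genes tested, 14.9% had no such overlap (7.24% lower and 7.64% higher on soft). The 138 genes were chosen by a test on these same values, so their separation is not further evidence. The count depended on single libraries. It fell to 27 without stiff library 3, to 64 without soft library 2, to 81 without stiff library 1 and to 87 without soft library 1, and it rose to 235 without soft library 3.

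Genes of the actin cytoskeleton made up the clearest group among the lower genes. Of 22 tested members of a list of SRF targets and contractile genes, 6 fell on soft substrates, among them Flnc, Cald1, Tpm1, Tagln and Acta2, and none rose. The median log2 fold change of the list was -0.13, against -0.0028 for all genes tested, and 16 of the 22 genes had a negative value. The study had shown some of these genes, Acta2, Tagln and Flnc among them, as examples from the same samples, so the list is not independent evidence of the direction.

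**Figure D1:**
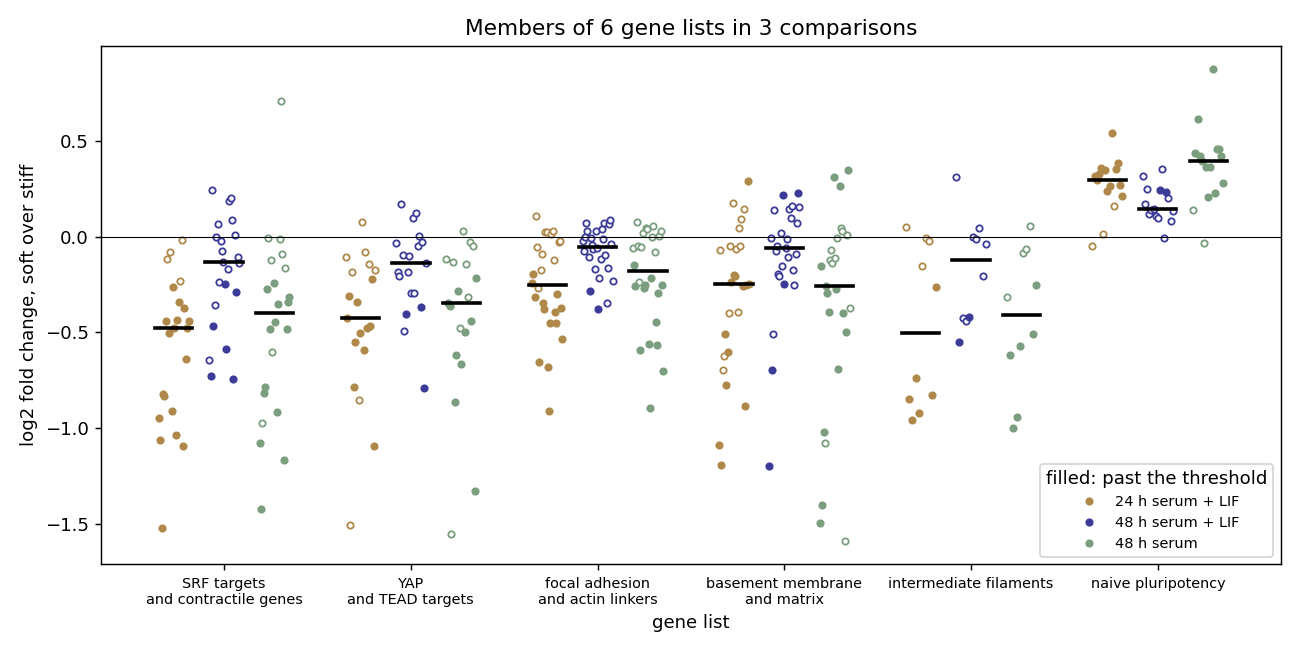
Log2 fold change (soft over stiff) of every tested member of 6 gene lists at 24 h in serum + LIF, at 48 h in serum + LIF and at 48 h in serum. Filled points passed the test, open points did not, and black bars are medians. At 48 h in serum + LIF the median of the SRF targets and contractile genes was -0.13, compared with -0.48 at 24 h and -0.40 in serum without LIF.

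Flnc encodes filamin C, which crosslinks actin filaments and lies on chr6:29433256-29461883 (GRCm38, plus strand). Its soft libraries held 56.7, 53.9 and 45.5 CPM and its stiff libraries 75.2, 74.0 and 85.0 CPM. The log2 fold change was -0.59 ± 0.07 (SE of the fit, n = 3 per compared group, adjusted p = 1.25e-06). This SE, here and below, rests on a spread estimated over all 36 libraries and not on these 6 alone. Every soft value lay under every stiff value, and plastic was higher again with 134.5 ± 3.37 CPM (SD, n = 3). Cald1 encodes caldesmon, an actin-binding regulator of contraction. It was at 81.1, 88.9 and 73.6 CPM on soft and at 105, 113 and 119 CPM on stiff substrates (log2 fold change -0.47 ± 0.07, adjusted p = 4.92e-05). Again the groups did not overlap, and the mean on plastic was 225 CPM. Both genes passed the test in each of the 6 fits that left out 1 library.

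Tpm1, which encodes a tropomyosin that lies along actin filaments, was more highly expressed and changed less. The soft libraries held 129, 133 and 116 CPM and the stiff libraries 150, 148 and 164 CPM (log2 fold change -0.29 ± 0.05, adjusted p = 0.000496). The groups did not overlap.

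Acta2 and Tagln, which are high in smooth muscle, were expressed at a low level here. Other smooth muscle genes of the list did not pass, with log2 fold changes of -0.36 for Cnn1, 0.19 for Myl9 and 0.20 for Mylk. Acta2 encodes smooth muscle actin and lies on chr19:34241090-34255590 (minus strand). It was at 9.59, 8.25 and 5.63 CPM on soft and at 12.3, 15.6 and 11.4 CPM on stiff substrates (log2 fold change -0.73 ± 0.17, adjusted p = 0.0163). Its level on plastic was 63.7 ± 7.17 CPM, so that the soft and stiff values lay close together beside it. Tagln, which encodes transgelin, an actin-bundling protein, was at 4.14, 4.89 and 3.47 CPM on soft and at 6.68, 6.54 and 7.57 CPM on stiff substrates (log2 fold change -0.74 ± 0.16, adjusted p = 0.0111). Its groups did not overlap, and the mean on plastic was 18.5 CPM.

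**Figure D2:**
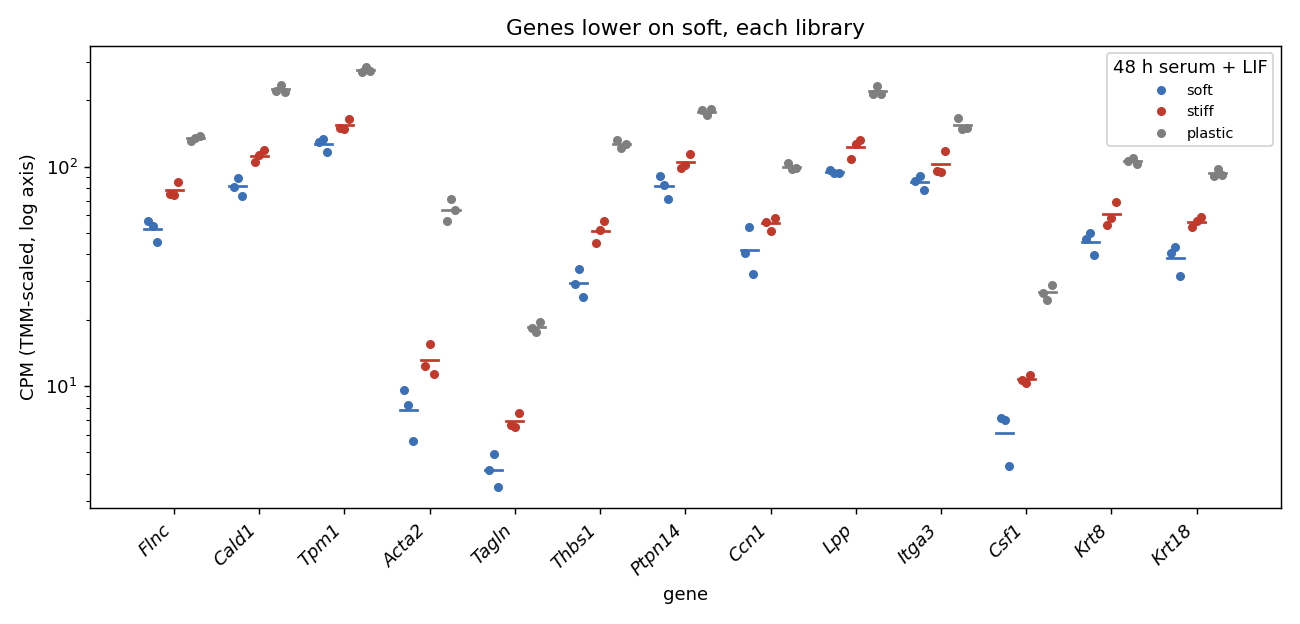
CPM (log axis) of 13 genes that were lower on soft substrates, in each of the 3 soft, 3 stiff and 3 plastic libraries after 48 h in serum + LIF, with horizontal bars for the means. Soft points lie under stiff points, with an overlap only for Ccn1, and Acta2 has the widest gap between the hydrogels and plastic (63.7 CPM).

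Targets of YAP and TEAD gave the gene with the smallest p of the whole comparison. Of 19 listed genes, 3 fell on soft substrates (Thbs1, Ptpn14 and Ccn1), none rose, and 15 had a negative value, with a median log2 fold change of -0.14. The study had shown Thbs1 as an example from the same samples too, so this list is not independent evidence either. Thbs1 encodes thrombospondin-1, a secreted matricellular protein, and lies on chr2:118111876-118127133 (plus strand). The soft libraries held 29.2, 34.2 and 25.6 CPM and the stiff libraries 45.01, 51.7 and 56.7 CPM, while plastic was at 126.5 ± 5.3 CPM. The log2 fold change between soft and stiff was -0.79 ± 0.08 (adjusted p = 2.53e-08), with no overlap.

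Ptpn14 encodes a phosphatase that binds YAP. It was at 90.5, 82.3 and 71.1 CPM on soft and at 98.5, 101 and 114 CPM on stiff substrates (log2 fold change -0.37 ± 0.06, adjusted p = 0.000380). The groups did not overlap. Ccn1, also known as Cyr61, encodes a secreted ligand of integrins. It was at 40.4, 52.96 and 32.4 CPM on soft and at 56.2, 51.1 and 58.5 CPM on stiff substrates (log2 fold change -0.40 ± 0.10, adjusted p = 0.0330). Here the highest soft library exceeded the lowest stiff library, which made Ccn1 the 1 lower gene whose groups overlapped. Ankrd1, a target often used as a reporter of YAP, was at most at 0.508 CPM in any of the 6 libraries and could not be judged at this depth.

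The promoters of the genes past the threshold were searched on either strand for GGAATG, the letters that TEAD factors are known to bind. The search ran from 250 bases before to 50 bases after the start given by RefSeq (GRCm38.p6). Thbs1 and Tagln had no promoter in the set used and were not searched. A promoter was available for 43 of the 59 lower genes, and 11 of them (25.6%) held the motif, compared with 10 of 55 higher genes (18.2%) and 14.8% of the 11989 tested genes with a promoter. The AP-1 motif TGACTCA was found in 3 of the 43 lower genes (6.98%), in 1 of the 55 higher genes (1.82%) and in 4.59% of all genes. The CArG box, the binding site of SRF, was searched only as CC, then 6 letters that are A or T, then GG. Sites that depart from this form were not counted. It was found in 1 of 43 lower genes (2.33%), in 2 of 55 higher genes (3.64%) and in 1.63% of all genes. No match of a motif overlapped one of another in these promoters. The stretches around the TEAD motif are shown for 6 of the lower cytoskeletal and YAP genes, to show that the motif stood in a different context in each. They are read 5′ to 3′ on the strand of the gene, and the capitals mark the motif, which reads CATTCC where it lies on the opposite strand.
Ccn1 (chr3:145650053-145650118, minus strand): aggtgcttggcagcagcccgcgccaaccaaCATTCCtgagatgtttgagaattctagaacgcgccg
Ptpn14 (chr1:189728092-189728157, plus strand): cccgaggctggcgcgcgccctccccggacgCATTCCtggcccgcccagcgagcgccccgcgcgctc
Flnc (chr6:29433122-29433187, plus strand): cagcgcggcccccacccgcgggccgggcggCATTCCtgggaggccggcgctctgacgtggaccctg
Cald1 (chr6:34598321-34598386, plus strand): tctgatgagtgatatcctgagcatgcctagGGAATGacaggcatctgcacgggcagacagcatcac
Tpm1 (chr9:67049234-67049299, minus strand): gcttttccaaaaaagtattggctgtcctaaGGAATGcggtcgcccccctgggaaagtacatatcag
Acta2 (chr19:34255484-34255549, minus strand): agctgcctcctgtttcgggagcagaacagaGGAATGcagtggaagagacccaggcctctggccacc
In Tpm1 the motif began 56 bases before the start, and in the other 5 genes between 103 and 153 bases before it. Cald1 has a second start, with no match in the 250 bases before it. Flnc also has another start, and the same motif began 1 base before that one. A match is a description of these letters and not of binding.

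Genes that link actin to adhesions changed little at 48 h. Of 26 listed genes of focal adhesions and actin linkers, 2 fell (Lpp and Itga3), none rose, and the median log2 fold change was -0.05. Lpp encodes a zyxin-related protein of adhesions and cell contacts. Its soft libraries held 96.3, 93.7 and 93.1 CPM and its stiff libraries 109, 126 and 133 CPM (log2 fold change -0.38 ± 0.07, adjusted p = 0.000987). The groups did not overlap. Itga3 encodes integrin alpha 3, a laminin receptor, and was at 86.0, 90.8 and 78.0 CPM on soft and at 95.9, 94.7 and 118 CPM on stiff substrates (log2 fold change -0.28 ± 0.07, adjusted p = 0.0330). Zyx, the gene of zyxin itself, had a log2 fold change of -0.23 and an adjusted p of 0.105, and Vcl, which encodes vinculin, had -0.04 and 0.853.

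Further genes of the cell cortex were among the 59 lower genes, though they were on no list and were picked out after their values were seen. Cav1 encodes caveolin-1, the coat protein of caveolae, membrane pits that flatten under tension. It was at 0.941, 0.762 and 0.785 CPM on soft and at 2.56, 1.39 and 2.66 CPM on stiff substrates (log2 fold change -1.42 ± 0.34, adjusted p = 0.0255). The groups did not overlap, but the level was low. Synpo2l, which encodes an actin-associated protein of the synaptopodin family, had a log2 fold change of -0.69 ± 0.13 (adjusted p = 0.00412). Phldb2, which encodes a protein that ties microtubules to the cell edge, had -0.54 ± 0.11 (adjusted p = 0.00781). The giant scaffolds Ahnak and Plec (plectin) were abundant and fell by 0.27 and 0.26 on the log2 scale.

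Matrix genes moved in both directions. Among 25 genes of basement membrane and matrix, 3 fell (Col12a1, Col1a1 and Lama5), 2 rose (Lama1 and Spp1), and the median log2 fold change was -0.06. Col1a1, the main chain of fibrillar collagen I, was at 15.1, 15.6 and 9.81 CPM on soft and at 18.9, 21.7 and 24.5 CPM on stiff substrates (log2 fold change -0.70 ± 0.16, adjusted p = 0.0135). Col12a1, which encodes a collagen that decorates such fibrils, was at 1.13, 2.16 and 1.90 CPM on soft and at 3.63, 4.59 and 3.74 CPM on stiff substrates (log2 fold change -1.20 ± 0.25, adjusted p = 0.00885). Neither had overlapping groups.

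The laminin alpha chains, parts of the heterotrimers that build basement membranes, split. Lama5 fell from 271 to 312 CPM on stiff to 226 to 262 CPM on soft substrates (log2 fold change -0.25 ± 0.05, adjusted p = 0.0117). Lama1 rose from 111 to 118 CPM on stiff to 131 to 136 CPM on soft substrates (log2 fold change 0.22 ± 0.06, adjusted p = 0.0475). It passed in none of the 6 fits that left out 1 library, and edgeR with the 6 libraries alone gave an adjusted p of 0.057. Spp1, which encodes the integrin ligand osteopontin, rose from 251 to 271 CPM to 293 to 335 CPM (log2 fold change 0.23 ± 0.06, adjusted p = 0.0295). Col8a1, a short-chain collagen, had the largest fold among the 138 genes, a log2 fold change of -1.64 ± 0.42 (adjusted p = 0.0393), at no more than 1.25 CPM in any of the 6 libraries. It was picked out after its values were seen.

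The paired keratins of simple epithelia fell together. Krt8 and Krt18, whose products assemble with each other into filaments, were the 2 of 10 intermediate filament genes that passed the test. Krt18 was at 40.3, 43.2 and 31.6 CPM on soft and at 52.8, 56.6 and 59.2 CPM on stiff substrates (log2 fold change -0.55 ± 0.08, adjusted p = 3.02e-05). Krt8 was at 46.7, 50.1 and 39.6 CPM on soft and at 54.3, 58.6 and 69.0 CPM on stiff substrates (log2 fold change -0.42 ± 0.08, adjusted p = 0.00621). In both genes soft library 3 was the lowest. The study had shown both genes, and Csf1, as examples from the same samples. These keratins are also trophectoderm markers. None of the other 8 genes of that marker list passed the test, but 8 of the 10 had a negative value and the median log2 fold change was -0.42. The summed level of the list was 159 to 196 CPM on soft and 200.4 to 234.8 CPM on stiff substrates, and at 24 h 6 of the 10 genes were lower on soft. The part of this marker list in the keratin difference was not tested.

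Of 15 growth factor and cytokine genes, 1 fell (Csf1) and 1 rose (Trh). Csf1 encodes the macrophage growth factor M-CSF, and its soft libraries held 7.15, 6.98 and 4.32 CPM against 10.7, 10.3 and 11.3 CPM on stiff substrates (log2 fold change -0.80 ± 0.15, adjusted p = 0.00234). No values overlapped, and plastic was at 26.8 CPM. Tgfb2, which encodes a TGF-beta ligand, was at 3.76, 4.70 and 3.92 CPM on soft and at 6.12, 7.79 and 5.68 CPM on stiff substrates (log2 fold change -0.65 ± 0.16, adjusted p = 0.0330). It was the 1 gene of 16 in the list of Nodal, Lefty and TGF-beta genes to pass. Jun, the AP-1 subunit, fell by 0.50 on the log2 scale (adjusted p = 0.0268), as 1 of 15 immediate early genes. The coagulation factor gene F5 had a log2 fold change of -0.81 ± 0.19 (adjusted p = 0.0218), and Itpkb, an inositol phosphate kinase gene, had -0.996 ± 0.18 (adjusted p = 0.00146).

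Among the other lower genes, Peg10 was by far the most abundant. Peg10 is an imprinted, retrotransposon-derived gene, and it was at 2188, 2233 and 1884 CPM on soft and at 2339, 2575 and 2809 CPM on stiff substrates (log2 fold change -0.29 ± 0.06, adjusted p = 0.0111). Of 19 imprinted genes it was the 1 that passed, while 16 of them had a negative value. Prtg, a surface protein gene of the early embryo, fell from 62.1 to 71.0 CPM on stiff to 46.6 to 52.3 CPM on soft substrates (log2 fold change -0.38 ± 0.07, adjusted p = 0.00139). Ccng1, a p53 target that encodes cyclin G1, fell by 0.21 on the log2 scale (adjusted p = 0.0330) as 1 of 13 listed p53 targets and cell cycle inhibitors. The transcription factor gene Ets1 had a log2 fold change of -0.76 ± 0.16 (adjusted p = 0.0101), and the actin-associated gene Filip1l had -0.76 ± 0.19 (adjusted p = 0.0397). Bst2, an antiviral membrane protein gene, had -0.40 ± 0.10 (adjusted p = 0.0330), with soft values within 19.8 to 20.2 CPM and stiff values within 26.2 to 26.7 CPM. Gm43668, an unclassified transcript, had -0.74 ± 0.19 (adjusted p = 0.0469).

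Naive pluripotency genes were mostly a little higher on soft substrates, and 2 of 15 passed the test. The list had 14 genes with a positive value and a median log2 fold change of 0.15, against -0.0028 for all genes. The study had shown this selection of genes from the same samples, so the list is not independent evidence of the direction. Nr5a2, an orphan nuclear receptor that maintains Pou5f1, was at 109, 113 and 114 CPM on soft and at 98.5, 89.7 and 95.1 CPM on stiff substrates (log2 fold change 0.25 ± 0.05, adjusted p = 0.00412). Tbx3, a T-box factor downstream of LIF, was at 115, 109 and 107 CPM on soft and at 92.7, 93.3 and 95.3 CPM on stiff substrates (log2 fold change 0.23 ± 0.05, adjusted p = 0.0111). In both genes all soft values lay above all stiff values, and plastic was lower than either gel, at 72.4 ± 2.07 CPM for Nr5a2 and 72.9 ± 2.51 CPM for Tbx3.

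The core naive factors did not pass. Esrrb, an orphan receptor and a central naive factor, came nearest, with 370.5, 378 and 359 CPM on soft and 329, 323 and 329.5 CPM on stiff substrates (log2 fold change 0.17 ± 0.05, adjusted p = 0.0511). Its groups did not overlap. For Nanog the log2 fold change was 0.11 ± 0.06 (adjusted p = 0.497), for Klf4 0.14 ± 0.05 (0.179) and for Zfp42, also known as Rex1, 0.14 ± 0.06 (0.319). Soft and stiff values of Nanog overlapped. Other listed genes lay in the same range, with Klf2 at 0.12, Klf5 at 0.15, Tcl1 at 0.20, Tfcp2l1 at 0.08, Nr0b1 at 0.10, Fbxo15 at 0.25, Dppa3 at 0.32 and Prdm14 at 0.35, and none of them passed the test. Stat3, the effector of LIF, was at -0.01 ± 0.06 (adjusted p = 0.981).

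General and formative genes did not pass either. Pou5f1, which encodes OCT4, was at 593, 610.5 and 565 CPM on soft and at 612, 594 and 582 CPM on stiff substrates (log2 fold change -0.02 ± 0.07, adjusted p = 0.963), and Sox2 and Sall4 had log2 fold changes of 0.07 and 0.13. Of the 6 formative genes, 5 had a negative value, with a median of -0.09. Pou3f1 was at -0.15 ± 0.09 (adjusted p = 0.548), Dnmt3b at -0.10 ± 0.06 (0.551), Lef1 at -0.08, Sox4 at -0.03 and Fgf5 at -0.29 ± 0.35 (0.827), while Otx2 was at 0.16 ± 0.10 (0.601). The wide error of Fgf5 goes with its low level of 1.07 to 2.16 CPM. Of the longer lists of epiblast genes given by the study, 4 of 137 pre-implantation genes rose (Lrrc34, Hesx1, Tubb2b and Trh) and none fell, while 2 of 197 post-implantation genes rose (Ldhb and Sept9) and 3 fell (Ptpn14, Ccng1 and Bst2). The medians of both lists were near 0, at 0.015 and -0.013.

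**Figure D3:**
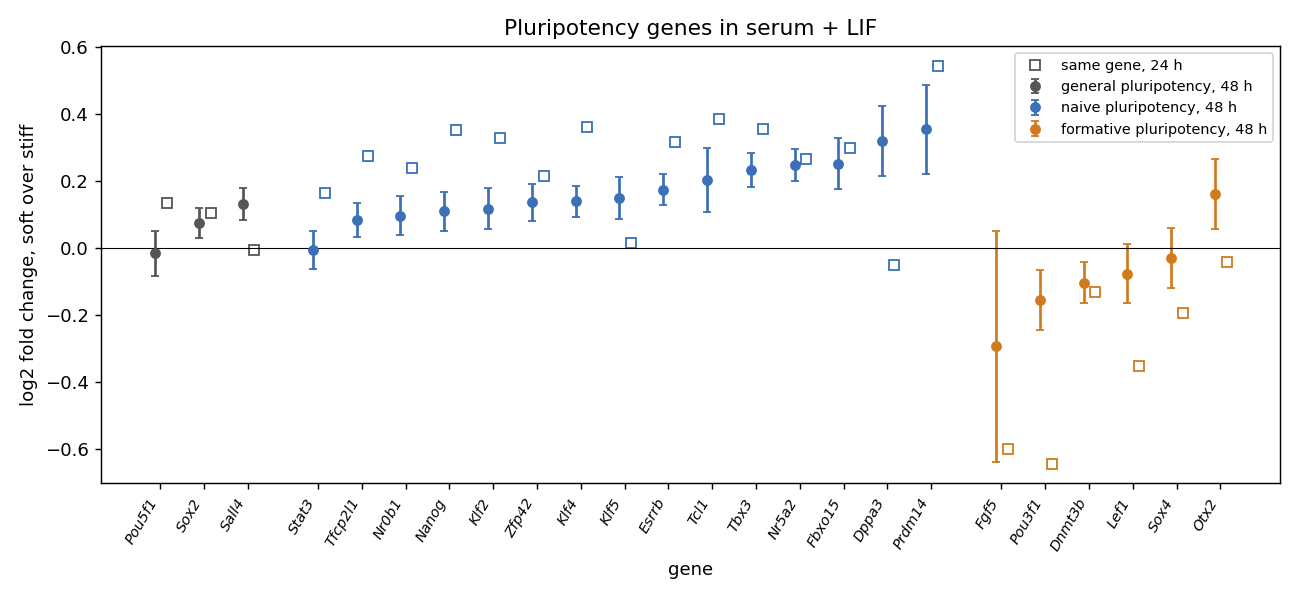
Log2 fold change (soft over stiff) of the study's general, naive and formative pluripotency genes after 48 h in serum + LIF (filled circles, error bars are the SE of the fit) and of the same genes after 24 h (open squares, no error drawn). For 14 of the 15 naive genes the 48 h value is above 0, from 0.08 for Tfcp2l1 to 0.35 for Prdm14, and the 24 h squares of Nanog, Klf2 and Klf4 lie higher.

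The higher gene with the smallest p was Sfrp1. It encodes a secreted protein that binds Wnt ligands and lies on chr8:23411502-23449632 (plus strand). It was at 93.1, 97.2 and 94.2 CPM on soft and at 73.4, 70.0 and 63.7 CPM on stiff substrates (log2 fold change 0.46 ± 0.06, adjusted p = 3.29e-06). The groups lay well apart, and the mean on plastic was 54.6 CPM. Kit, the receptor of stem cell factor, was at 53.6, 49.9 and 52.2 CPM on soft and at 43.2, 39.2 and 39.4 CPM on stiff substrates (log2 fold change 0.36 ± 0.07, adjusted p = 0.00303). Its groups did not overlap either.

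The neighbouring Ifitm genes, which encode small interferon-inducible membrane proteins, rose by a like amount. Ifitm1 was at 119, 118 and 109 CPM on soft and at 90.6, 91.9 and 89.7 CPM on stiff substrates (log2 fold change 0.35 ± 0.06, adjusted p = 0.000206). Ifitm2 was at 174, 188 and 172 CPM on soft and at 144, 150 and 133 CPM on stiff substrates (0.32 ± 0.05, adjusted p = 0.000206). Ifitm3, named after its values were seen, had a log2 fold change of 0.31 ± 0.07 (adjusted p = 0.0101). These genes are similar in sequence, and reads that match more than 1 of them are a source of uncertainty.

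Kank2, which encodes a protein that joins talin at the rim of focal adhesions, rose from 118 to 129.5 CPM on stiff to 143 to 159.5 CPM on soft substrates (log2 fold change 0.30 ± 0.05, adjusted p = 0.000427). It went the other way from the adhesion and actin genes above. Ldhb, a lactate dehydrogenase subunit, was at 113, 111 and 110 CPM on soft and at 87.3, 91.3 and 83.0 CPM on stiff substrates (0.35 ± 0.06, adjusted p = 0.00172), as 1 of 21 glycolysis genes. Fabp3, a fatty acid carrier, rose from 61.2 to 67.0 CPM to 81.7 to 91.9 CPM (0.40 ± 0.07, adjusted p = 0.000380). Trh, which encodes thyrotropin-releasing hormone, was at 134, 120 and 135 CPM on soft and at 103, 114 and 90.2 CPM on stiff substrates (0.34 ± 0.09, adjusted p = 0.0374). On plastic Trh was at 49.2 CPM.

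Some of the higher genes with the largest folds mark cells outside the epiblast. Of 18 markers of primitive and parietal endoderm, 3 rose (Srgn, Cubn and Lama1) and none fell, while 11 had a positive and 7 a negative value. At 24 h none of the 18 was higher and 5 were lower on soft, with 12 negative values and a median log2 fold change of -0.23. Srgn encodes the proteoglycan serglycin and lies on chr10:62493833-62527451 (minus strand). It was at 9.66, 11.2 and 11.1 CPM on soft and at 5.40, 5.15 and 4.71 CPM on stiff substrates (log2 fold change 1.07 ± 0.17, adjusted p = 0.000318). Cubn, which encodes the endocytic receptor cubilin, was at 37.8, 32.3 and 35.2 CPM on soft and at 20.1, 21.9 and 22.5 CPM on stiff substrates (0.70 ± 0.14, adjusted p = 0.00621). Neither gene had overlapping groups. The summed level of the 18 markers was 919 to 975 CPM on soft and 882 to 956 CPM on stiff substrates, with a median log2 fold change of 0.06. In bulk RNA, more cells of a type and more RNA of these genes per cell cannot be told apart.

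Neural and other developmental genes appeared singly. Pax6, an eye and neural transcription factor, was at 38.4, 35.2 and 42.8 CPM on soft and at 30.2, 29.3 and 28.8 CPM on stiff substrates (log2 fold change 0.40 ± 0.09, adjusted p = 0.0180), as 1 of 5 tested neuroectoderm markers. Sox21 rose from 6.65 to 7.37 CPM to 9.72 to 12.9 CPM (0.63 ± 0.14, adjusted p = 0.0163). Hesx1, a homeobox gene of the anterior embryo, had a log2 fold change of 1.09 ± 0.25 (adjusted p = 0.0169) at 0.782 to 2.73 CPM. Ly6g6e, a surface protein gene, had 1.02 ± 0.19 (adjusted p = 0.00234) at 1.56 to 4.70 CPM. Lrrc34 (0.39 ± 0.09, adjusted p = 0.0132), Tubb2b (0.21 ± 0.05, 0.0271), Sept9 (0.22 ± 0.05, 0.0167) and Mageb16 (0.46 ± 0.12, 0.0475) also rose. None of 9 mesoderm and endoderm markers, 7 markers of two-cell-like cells and 9 germline genes passed, and of 9 fibroblast markers Col1a1 alone did. The two-cell-like markers had a negative value in 6 of 7, a median log2 fold change of -0.89 and a summed level of 6.03 to 9.61 CPM on soft against 13.3 to 16.5 CPM on stiff substrates, which did not overlap. Their part in the other differences was not tested.

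**Figure D4:**
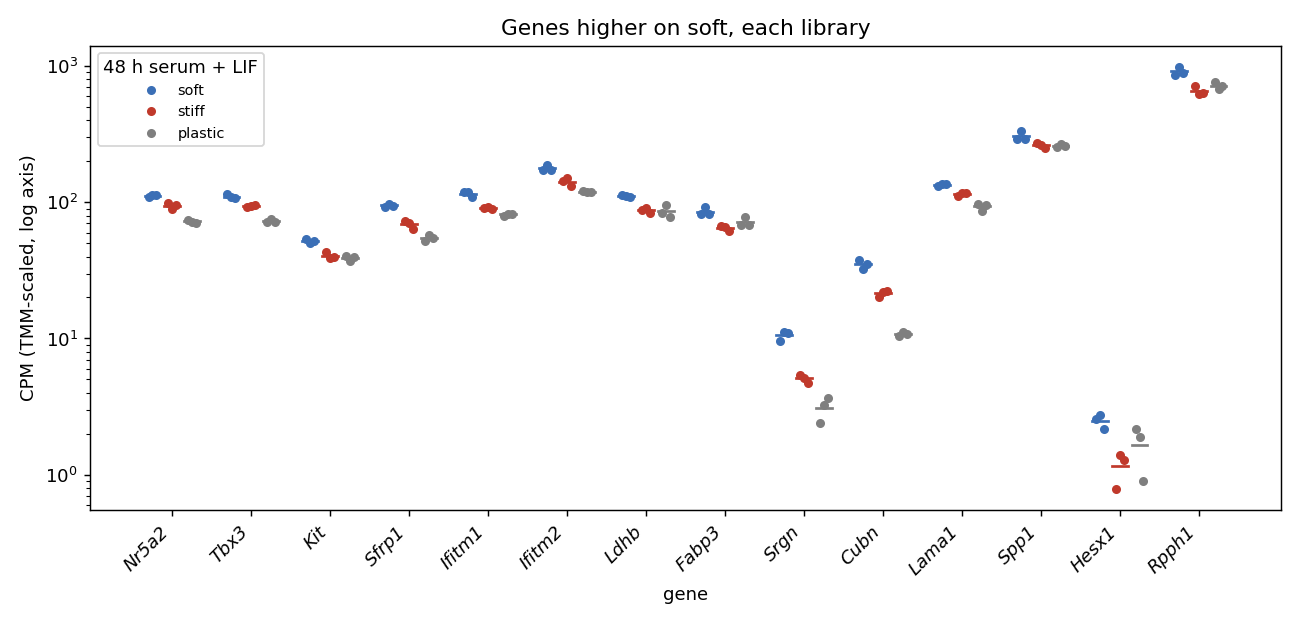
CPM (log axis) of 14 genes that were higher on soft substrates, in each of the 3 soft, 3 stiff and 3 plastic libraries after 48 h in serum + LIF, with horizontal bars for the means. Soft points lie above stiff points in every gene drawn, with the widest gaps for Hesx1 and Srgn, and plastic is lowest of all for Cubn (10.8 CPM) and Srgn (3.11 CPM).

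Some short and structural RNAs were among the higher genes. In a list of nuclear-retained and structural RNAs, Rpph1 alone of 9 tested genes passed, while 6 had a negative value and the median log2 fold change was -0.29. Rpph1, the RNA subunit of RNase P, was at 864, 986 and 893 CPM on soft and at 719, 625 and 638 CPM on stiff substrates (log2 fold change 0.47 ± 0.09, adjusted p = 0.00621). Rn7s1 was at 126, 167 and 163 CPM on soft and at 113, 87.9 and 80.6 CPM on stiff substrates (0.70 ± 0.14, adjusted p = 0.00390), and Rn7s2 had 0.68 ± 0.17 (adjusted p = 0.0361). Rn7s1 and Rn7s2 are near-identical copies of the signal recognition particle RNA, between which reads cannot be assigned with certainty. Their means on plastic, 152.5 and 155 CPM, were above all stiff values. Rprl3 rose too (0.73 ± 0.19, adjusted p = 0.0486). Among other higher genes, the pseudogenes or ribosomal-protein-like transcripts Gm7536 (0.66 ± 0.14, adjusted p = 0.00761) and Gm15501 (0.46 ± 0.11, 0.0295), the DNA repair gene Xpa (0.64 ± 0.16, 0.0361), the ribosomal protein gene Rpl29 (0.29 ± 0.07, 0.0334) and the small membrane protein gene Tmem258 (0.29 ± 0.06, 0.00517) rose as well. Copies of ribosomal genes share reads, and their values are uncertain.

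Higher and lower genes differed in the length of their merged exons, which the test did not use. The median was 6563 bases for the lower genes, 3799 bases for the higher genes and 3842 bases for all genes tested. Of the lower genes, 39 of 59 (66.1%) were longer than 5000 bases, compared with 35.9% of all genes. Of the higher genes, 11 of 79 (13.9%) were shorter than 1000 bases, compared with 6.95% of all genes. Whether length or RNA quality had a part in these differences was not tested. The share of mitochondrial transcripts was 0.626% to 1.44% on soft and 1.11% to 1.25% on stiff substrates, and that of ribosomal protein genes 5.38% to 5.73% and 5.21% to 5.46%.

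Many processes showed no gene past the test. None of the listed genes of ERK feedback (17 genes), LIF and STAT3 (14), BMP and Id (11), Wnt targets (16), DNA methylation (9), cell junctions (20), matrix proteases (13), cholesterol synthesis (24), fatty acid synthesis (14), amino acid stress and serine synthesis (21), heat shock (18), metallothionein and iron (13) and hypoxia (12) passed, nor did any of 15 genes of the mitochondrial genome. In some of these the values leaned one way without passing. Of 20 cell cycle genes 19 had a positive value with a median log2 fold change of 0.05, and of 20 genes of oxidative phosphorylation 18 did, with a median of 0.07. The 17 ERK feedback genes had 13 negative values and a median of -0.06.

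The next question was how far the differences at 48 h had been present at 24 h, in separate libraries. At 24 h, 628 genes (3.55%) differed between soft and stiff substrates, 182 (1.03%) higher and 446 (2.52%) lower on soft. Of the 59 genes lower at 48 h, 45 were also past the threshold in the same direction at 24 h and none in the opposite direction. Their sign was the same in 54 of 59 (91.5%), compared with 53.6% of all genes with a negative value at 48 h. Their median log2 fold change was -0.58 at 24 h, larger than the -0.44 at 48 h by which they had been chosen. Of the 79 higher genes, 26 were past the threshold in the same direction at 24 h, and 59 (74.7%) had the same sign, compared with 52.9% of all genes with a positive value at 48 h. Whether lower and higher genes differed in these shares was not tested.

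Individual lower genes kept their order. Thbs1 was at 67.3, 66.6 and 62.8 CPM on soft and at 123, 146 and 149 CPM on stiff substrates at 24 h (log2 fold change -1.09 ± 0.07, adjusted p = 1.2e-15 in edgeR), and Cald1 at 156, 158 and 143 CPM against 261, 293 and 254 CPM (-0.82 ± 0.07). Both genes had higher CPM on both substrates at 24 h than at 48 h, in libraries of another pool for all but 1 of the 48 h samples. Csf1 had -1.38 ± 0.12 at 24 h. Among the higher genes, Sfrp1 (0.63 ± 0.06), Kit (0.56 ± 0.07) and Tbx3 (0.35 ± 0.05) were past the threshold at 24 h too. Srgn was not, with 7.58, 6.24 and 8.33 CPM on soft and 7.11, 5.83 and 6.92 CPM on stiff substrates at 24 h (0.16 ± 0.17), nor was Cubn (0.11 ± 0.14). Rpph1 had -0.18 at 24 h and Rn7s1 0.07, and neither passed.

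**Figure D5:**
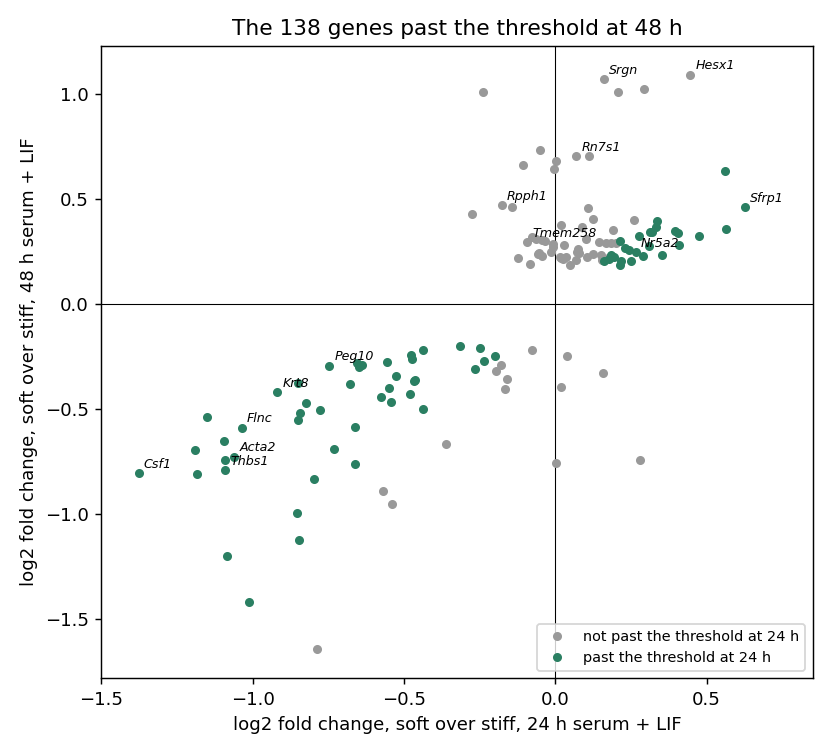
Log2 fold change (soft over stiff) at 48 h against that at 24 h, both in serum + LIF, for the 138 genes past the threshold at 48 h. Green points are also past the threshold at 24 h. The lower genes fall along a band in the lower left (54 of 59 negative at both times), while higher genes such as Srgn, Rpph1 and Rn7s1 lie near 0 at 24 h.

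Read the other way, the 446 genes lower at 24 h had a median log2 fold change of -0.46 at 24 h and of -0.14 at 48 h. These genes were chosen by their 24 h values, so the smaller median at 48 h is no test of a change with time. They kept their sign at 48 h in 369 cases, and 45 of them still passed. A test of the difference between the times (48 h minus 24 h) passed for 45 genes (0.254%), with a positive value in 40 (0.226%) and a negative one in 5 (0.0282%). Of these genes, 34 were among the 446 genes lower at 24 h, and with a pool term the test passed for between 0 and 42 genes. Col4a2, a chain of basement membrane collagen IV, went from -0.78 at 24 h to -0.05 at 48 h (difference 0.73 ± 0.09, adjusted p = 8.78e-06). Its 48 h libraries held 50.6, 54.4 and 45.9 CPM on soft and 48.4, 54.4 and 52.96 CPM on stiff substrates, which overlapped. Serpinh1, the collagen chaperone, went from -0.88 to -0.09 (0.79 ± 0.12, adjusted p = 0.000194). Nes, the intermediate filament nestin, went from -0.83 to -0.21 (0.62 ± 0.09, adjusted p = 0.000239), Amot, a YAP-binding protein, from -0.66 to -0.02 (0.65 ± 0.11, adjusted p = 0.000715), and Dsp, the desmosomal plaque protein, from -0.64 to -0.17 (0.47 ± 0.08, adjusted p = 0.000715).

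Some genes that still passed at 48 h also had a smaller difference than at 24 h. These were Flnc (difference 0.45 ± 0.10, adjusted p = 0.0231), Krt8 (0.50 ± 0.11, 0.0370), Tpm1 (0.35 ± 0.07, 0.00898), Prtg (0.47 ± 0.09, 0.00967) and Peg10 (0.45 ± 0.09, 0.00967). For Thbs1 the difference between the times did not pass (0.30 ± 0.11, adjusted p = 0.288). Rpph1 and Tmem258, higher on soft substrates at 48 h and with negative values at 24 h, passed as well (0.65 ± 0.14, adjusted p = 0.0142, and 0.39 ± 0.08, 0.0192). In the naive list, 12 of 15 genes passed at 24 h, with a median of 0.30, and 2 at 48 h, with a median of 0.15. The difference between the times passed for none of the 15 genes, and for Nanog it was -0.24 (adjusted p = 0.24).

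The last question was whether LIF changed the response. Without LIF, 858 genes (4.85%) differed between soft and stiff substrates at 48 h, 368 (2.08%) higher and 490 (2.77%) lower on soft. Of the 59 lower genes with LIF, 47 were past the threshold in the same direction without it, and of the 79 higher genes 44 were. The 3 soft libraries in serum alone came from the pool that held the soft libraries with LIF. The 3 stiff ones came from the pool that held 2 of the stiff libraries with LIF. In this comparison too, a difference between pools and one between substrates cannot be told apart. The recurrence of genes without LIF is thus not independent of the pool. The median log2 fold change of the lower genes without LIF was -0.55. Of the 59 lower genes, 44 passed in all of the 3 comparisons (24 h, 48 h with LIF and 48 h without), and of the 79 higher genes 22 did. In neither of the other comparisons did 11 of the lower genes pass, Filip1l, Bst2 and Col8a1 among them, and 31 of the higher genes, which included Rpph1, Rn7s1, Rn7s2, Rprl3, Rpl29, Gm7536, Xpa, Mageb16 and Tmem258. The median exon length of these 31 genes was 1946 bases, and that of the other 48 higher genes was 4932 bases.

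A test of whether the response differed between the media passed for few genes. The difference (with LIF minus without) passed for 15 genes (0.0847%), with a positive value in 11 (0.0621%) and a negative one in 4 (0.0226%). It passed for 1 gene with the compared libraries alone, for 0 to 124 with 1 library left out and for 0 to 19 with a pool term. DESeq2, another count test, called 98 genes, but only 7 of the 15 were among them. Thbs1 fell less with LIF, with -0.79 against -1.33 without (difference 0.54 ± 0.12, adjusted p = 0.0412). In serum alone its soft libraries held 27.2, 30.9 and 25.8 CPM and its stiff libraries 73.4, 69.8 and 67.6 CPM, so that the soft values lay in the same range in both media and every stiff value was higher without LIF. Peg10 (0.41 ± 0.09, adjusted p = 0.0419) and Zyx (0.47 ± 0.09, 0.0365) followed the same order, with a smaller difference in the presence of LIF. Pou3f1, the formative factor OCT6, was at -0.15 with LIF and -0.74 without (0.58 ± 0.12, adjusted p = 0.0375), and Pim2, a kinase gene, at 0.07 and -0.46 (0.53 ± 0.09, adjusted p = 0.00612). In the opposite direction, the naive factor Tfcp2l1 was at 0.08 with LIF and 0.42 without (-0.34 ± 0.07, adjusted p = 0.0375). Jam2, a junctional adhesion molecule, was at 0.15 and 0.53 (-0.38 ± 0.07, adjusted p = 0.00612), and Tns1, the adhesion protein tensin, at -0.07 and 0.42 (-0.50 ± 0.10, adjusted p = 0.0375). Rpl29 was higher on soft substrates with LIF and had a negative value without (0.50 ± 0.10, adjusted p = 0.0365).

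Within the groups, the libraries did not contribute equally. Of the 59 lower genes, stiff library 3 was the highest stiff library in 38 and soft library 3 the lowest soft library in 33. Of the 79 higher genes, stiff library 3 was the lowest stiff library in 38, and soft library 3 was the soft library nearest to the stiff ones in 46. Removal of any 1 library left 6 lower genes (Csf1, Thbs1, Flnc, Krt18, Cald1 and Perp) and 10 higher genes (Nr5a2, Kank2, Ifitm2, Ifitm1, Ldhb, Kit, Fabp3, Sfrp1, Cubn and Srgn) that passed in all 6 such fits, and all 138 genes kept their sign in them. Among the named genes, Lama1, Bst2 and Rprl3 passed in none of the 6.

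A term for the sequencing pool was added in every way the labels allowed. The columns do not show which stiff library of serum + LIF came from which pool. The same holds for the soft libraries in serum + PD03, an inhibitor of MEK. That group had 4 libraries in the pool of the 48 h soft libraries and 2 in a pool of the stiff ones. No other group spanned these 2 pools. The 45 possible assignments were fitted over the series. Only 1 of them can be true, so the number of fits that a gene passed is no measure of certainty. The number of genes past the threshold was then between 0 and 41, and no gene passed in all 45. At least once, 33 of the 59 lower and 39 of the 79 higher genes passed. Thbs1 passed in 40 of the 45, Sfrp1 in 35, Flnc in 29, Krt18 in 26 and Cald1 in 19, while Acta2 passed in 4 and Tagln, Tbx3 and Ccn1 in none. The direction was kept in all 45 by 58 of the lower genes and 77 of the higher genes, the exceptions being Itga3, Pax6 and Trh. Of the lower genes that kept it, 44 were also past the threshold at 24 h, when both substrates were sequenced in 1 pool, as were 25 of the higher genes.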

How the data were processed

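Per the labels, RNA was extracted with the RNeasy kit and libraries were made with a NuGen kit. Per the study's methods and the submitters' processing notes, the authors aligned reads to mm10 with STAR 2.5.2a and counted them per Ensembl gene with HTSeq. The strand setting is not given in the sources used here. The authors deposited raw counts of 49671 genes in 36 libraries without normalisation. Columns carry group names and no replicate number, so library numbers are only names, and nothing says that replicates came from separate cultures, so p-values measure only the spread between libraries. In edgeR 4.0.16 (R 4.3.3), filterByExpr kept 17702 genes (99.92% of counts), TMM scaled the libraries, and a quasi-likelihood model with 1 coefficient per group was fitted to all 36. Contrasts were tested with glmQLFTest and adjusted by Benjamini-Hochberg over all 17702 genes (threshold 0.05). CPM were computed here. Replicate libraries differed by more than sampling noise (chi-square per gene 3.20 to 10.4). On simulated counts for this contrast with 200 of 17702 genes changed, the fit recovered 70% at a log2 change of 0.5 and 89% at 1, with 8 false among 167 calls. The changed genes were drawn from those above a minimum count in the stiff libraries, and no pool difference was simulated. Smaller changes were not simulated, though the median called changes were 0.29 (higher) and -0.44 (lower). These rates therefore do not hold for the real calls. Coordinates and merged exon lengths are from GENCODE M21 (GRCm38) and promoters from RefSeq (GRCm38.p6).

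Named genes were list members past the threshold, the study's pluripotency genes, the 12 per direction with the largest fold (mean at least 5 CPM, no overlap), the 12 with the smallest p, and the 5 with the smallest p for each interaction together with any of the former that passed it. The comparison, lists and rule were chosen with earlier results of these data known. Alternatives were RLE scaling, DESeq2 1.42.0, other filters, the 6 libraries alone, leaving out each library and a pool term. The values of 1 gene past the threshold are not reported here.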

Additional observations from a re-analysis of the deposited data

Results flagged for a closer look

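The effect of stiffness at 48 h in serum + LIF differed from that at 24 h, by an interaction test, for 45 genes. Among the named genes the difference (48 h minus 24 h, log2 scale) was 0.73 for Col4a2, 0.79 for Serpinh1, 0.62 for Nes, 0.65 for Amot (0.645) and 0.47 for Dsp, which all passed at 24 h and not at 48 h. It was 0.45 for Flnc (0.449), 0.50 for Krt8, 0.35 for Tpm1, 0.47 for Prtg and 0.45 for Peg10, which passed at both times. For Rpph1 (0.65) and Tmem258 (0.39), which were higher on soft substrates at 48 h alone, the sign of the difference is that of the 48 h value. The 24 h libraries shared 1 pool and the 48 h libraries did not. With a pool term, the interaction passed for between 0 and 42 genes over the 45 possible assignments.

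The effect differed from that in serum without LIF for 15 genes. It did so for 1 gene with the compared libraries alone, for 0 to 124 with 1 library left out and for 0 to 19 with a pool term. Of the 15, DESeq2 called 7. The difference (with LIF minus without) was 0.54 for Thbs1, 0.41 for Peg10, 0.47 for Zyx, 0.58 for Pou3f1, 0.53 for Pim2 and 0.50 for Rpl29. It was -0.34 for Tfcp2l1, -0.38 for Jam2 and -0.50 for Tns1. With 3 libraries per group, no group was large enough for a test of single outlying samples.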

How the results depend on the processing

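The 48 h comparison in serum + LIF called 138 genes (79 higher, 59 lower on soft). It called 140 with RLE scaling and 151 with a filter of at least 1 CPM in 3 libraries, 266 without a filter (178 higher, 88 lower) and 242 with DESeq2 (163 higher, 79 lower), so that the higher share went from 57.2% to 66.9% and 67.4%, and 81 with the 6 libraries alone (47 higher, 34 lower). Of the 138, 133 were called by DESeq2 and 69 from the 6 libraries alone. Leaving out 1 library gave 27 to 235 genes (18 to 180 higher, 9 to 55 lower). The pool term gave 0 to 41 genes in all, 0 to 21 higher and 0 to 21 lower, with 0 to 12 where stiff library 3 was the one placed in the first pool. At 24 h leaving out 1 library gave 416 to 522 genes. In serum it gave 546 to 686, and the pool term 173 to 384. The time interaction (45 genes) gave 189 without a filter, 96 with DESeq2, 10 to 188 without 1 library and as few as 0 with the pool term. The LIF interaction (15 genes) gave 173 without a filter and 98 with DESeq2, of which only 7 were among the 15. It gave 1 from the libraries compared alone, 0 to 124 without 1 library and as few as 0 with the pool term. The cause of these shifts was not tested. Under the pool term Itga3 reached 0.01 (0.0073), Pax6 -0.0407 and Trh -0.24, which reversed their direction, and no named gene past the threshold reversed under any other alternative. Of the uncalled values of named genes, 16 changed sign in some alternative, all of them small. No paired analysis was possible because the columns carry no replicate number. With 3 libraries per group, a gene that missed the threshold is not shown to be the same on both substrates.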
